A study of Homo sapiens with 2 samples.

Results

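The genes examined here were 10 core genes of the bone morphogenetic protein (BMP) and transforming growth factor beta (TGF beta) pathway: the ligands TGFB1 and BMP4, the type II receptors BMPR2 and TGFBR2, the type I receptors BMPR1A, BMPR1B, ACVR1 and TGFBR1, and the signal carriers SMAD4 and SMAD5. They were chosen by name, and a probe was taken as a member when the array's annotation named one of these genes by symbol. Of the 10 genes, 9 were found, out of 17280 genes named on the arrays, and they held 300 probes. No probe named ACVR1 by its symbol, so ACVR1 was not analysed here. None of the 300 probes named a second gene by symbol, and annotation entries without a symbol were not counted. BMPR2, TGFBR2, BMPR1B, TGFBR1 and SMAD5 lay on the array called chIP1 (168 probes), and BMPR1A, TGFB1, BMP4 and SMAD4 on the array called chIP2 (132 probes).

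To determine where GATA1 DNA was recovered at these loci, ChIP-on-chip data, in which immunoprecipitated chromatin is hybridized to a promoter microarray, were examined from non-treated Meg-01 cells, a cell line from a human megakaryoblastic leukemia. DNA pulled down with a GATA1 antibody (C-20, the IP, labeled with Cy5) was hybridized together with DNA pulled down with normal goat IgG (the background, labeled with Cy3). The 2 arrays hold different probes, so each probe was measured in 1 hybridization. There was no replicate and no dye swap, and no test was made. Because only DNA was measured, the identity of the cells could not be checked on markers.

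BMPs and TGF beta are secreted proteins that bind a pair of type II and type I receptors at the cell surface. The type II receptor activates the type I receptor, a kinase that phosphorylates receptor SMADs, and these join SMAD4 and move to the nucleus to regulate genes. TGF beta holds back megakaryocyte growth in culture, and BMP4 acts in the formation of blood precursors. GATA1 is named for the DNA letters that its zinc fingers recognize, and red cells and platelets do not form normally without it.

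Each probe was given the log2 ratio of its processed IP and IgG intensities, called log2(IP/IgG), after each array was centered on a median of 0. Values were then averaged over each probe and its neighbor on either side, as long as neither was more than 1000 bp away. A window was called enriched at a mean of at least 1, which is 2-fold toward the IP, and depleted at a mean of at most -1, which is 2-fold toward the IgG. The depleted windows are the background on the same arrays. The error after each window mean is the error that the scanner software gave its log ratios, combined over the probes. It holds only measurement error within 1 hybridization. Distances are those of the array annotation, negative upstream of the transcription start. The genome build of the array coordinates is not given in the sources used here. The annotation marks a probe as promoter or inside the gene, without exon or intron.

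The raw signals were low on both arrays. The median mean signal of genomic probes was 543 and 544 in the IP channel on chIP1 and chIP2, against 342 and 340 for negative control spots, and 412 and 440 in the IgG channel, against 303 on both. The log2(IP/IgG) of kept probes had an SD of 0.97 on each array, while a control probe spotted 480 times had an SD of 0.048 and 0.044. Of the 300 probes of the 9 genes, 0 were saturated, 4 were not well above background in the IgG channel (3 of BMPR1A and 1 of TGFBR2), and the median error of a probe was 0.23. All 300 were kept.

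Of the 9 genes, 8 had an enriched window: all except TGFBR1. Over all 17054 genes with a window, 57.1% did. A depleted window was present in 7 of the 9, all except BMPR2 and TGFB1, against 52.9% of all genes, and 6 genes had both kinds. These genes were tiled more densely than most, with a median of 31 windows per gene against 23. Among genes with 18 to 47 windows, the range of the 9 genes, 63.3% had an enriched and 61.1% a depleted window. Counted by window, 34 of 273 (12.5%) were enriched, against 7.62% of all windows, and 39 of 273 (14.3%) were depleted, against 9.65%. Both sides were thus above the background share. Runs of at least 3 adjacent enriched windows were found in 4 of the 9 genes (BMPR2, TGFBR2, BMPR1B and TGFB1), against 26.2% of all genes. Runs of at least 3 depleted windows were found in 5 (TGFBR2, BMPR1A, BMPR1B, BMP4 and SMAD5), against 26.2% of all genes. The median of the highest windows was 1.45, against 1.09 over all genes, and the median of the lowest was -1.39, against -1.05. The runs and these medians were set against all genes, not against genes with a like number of windows. So were the percentages of genes on an array given below. A gene with more windows has more chances of a run and of an extreme window. Adjacent windows share probes and are not replicates.

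**Figure D1:**
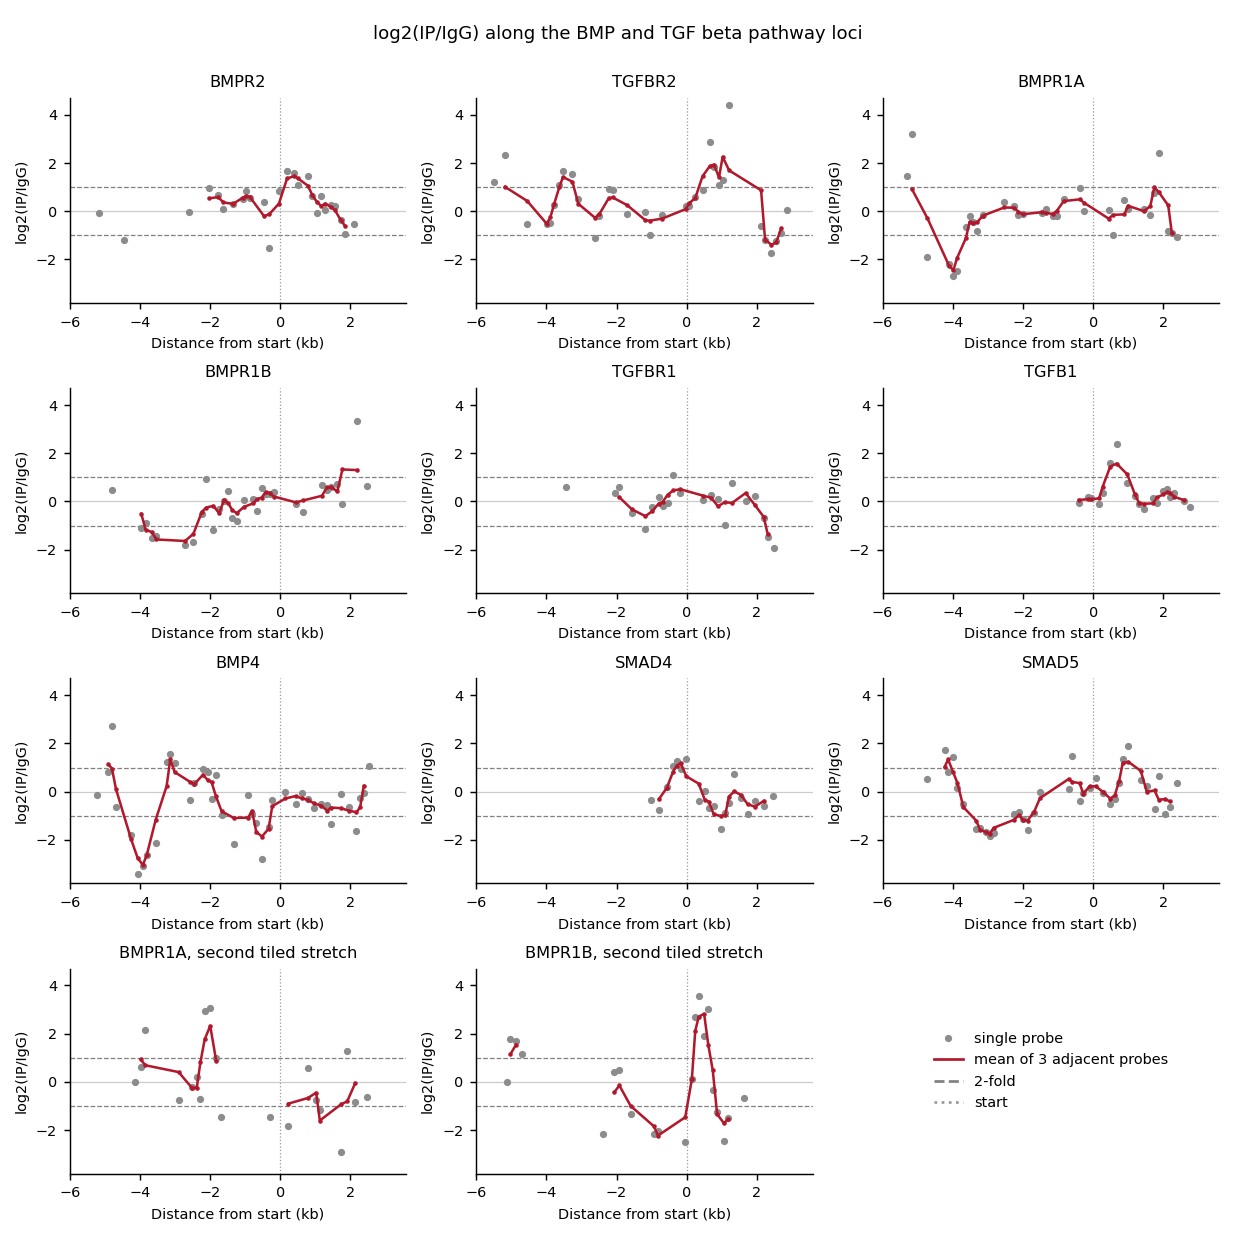
log2(IP/IgG) against distance from the annotated transcription start in kb for the 9 genes, with gray points for single probes, the red line for means of 3 adjacent probes and dashed lines at 2-fold. BMP4 is drawn from its upstream start, and the last 2 panels show the second tiled stretch of BMPR1A and BMPR1B with distance from the nearest start of any annotated transcript. BMPR2, TGFBR2 and TGFB1 rise above 2-fold just after the start, SMAD4 just before it, and TGFBR1 does not.

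The promoters of 4 genes are printed for 2 reasons. BMPR2 and SMAD4 had an enriched stretch near the start and no match to a GATA motif in the bases searched. BMPR1A and SMAD5 had a match. The search did not cover the whole enriched stretches. That of BMPR2 was centered 196 to 790 bp after the start, and that of SMAD4 reached a probe 386 bp before it. Shown are the 250 bases before the start, 5′ to 3′, from RefSeq on GRCh38.p14, plus strand, with matches to a GATA motif in capitals. The motifs searched, on both strands, were AGATAA and its variant AGATAG, and TGATAA and its variant TGATAG. The RefSeq start need not be the start used by the array.
BMPR2, chr2:202376077-202376326: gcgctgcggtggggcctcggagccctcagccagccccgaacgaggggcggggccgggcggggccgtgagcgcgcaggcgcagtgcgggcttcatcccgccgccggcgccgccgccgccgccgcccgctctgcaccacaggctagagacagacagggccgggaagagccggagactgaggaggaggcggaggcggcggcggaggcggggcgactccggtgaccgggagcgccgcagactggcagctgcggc
SMAD4, chr18:51029963-51030212: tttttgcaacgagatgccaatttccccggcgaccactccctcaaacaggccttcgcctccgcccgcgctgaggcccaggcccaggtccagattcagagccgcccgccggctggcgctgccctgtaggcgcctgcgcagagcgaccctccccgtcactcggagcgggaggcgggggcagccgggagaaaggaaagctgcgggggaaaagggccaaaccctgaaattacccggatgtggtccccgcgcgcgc
BMPR1A, chr10:86755513-86755762: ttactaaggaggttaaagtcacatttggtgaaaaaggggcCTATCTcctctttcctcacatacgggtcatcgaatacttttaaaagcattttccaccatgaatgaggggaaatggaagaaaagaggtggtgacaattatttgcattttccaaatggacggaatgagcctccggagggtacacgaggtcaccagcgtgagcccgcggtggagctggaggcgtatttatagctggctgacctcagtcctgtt
SMAD5, chr5:136132595-136132844: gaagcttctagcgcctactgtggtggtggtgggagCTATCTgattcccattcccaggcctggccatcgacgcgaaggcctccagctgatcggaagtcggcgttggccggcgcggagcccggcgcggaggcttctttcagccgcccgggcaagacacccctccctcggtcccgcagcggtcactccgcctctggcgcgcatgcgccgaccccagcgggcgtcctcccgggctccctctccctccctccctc

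Counted over 300 bases, from 250 before to 50 after the start, 25.0% of 35116 RefSeq promoters held at least 1 match. Of the 24 promoters listed for the 10 genes, which have several starts each in some cases, 5 (20.8%) held one. The runs in capitals are AGATAG read on the other strand. The BMPR1A match began 210 bases before the start, and a second match began 16 bases after it. The SMAD5 match began 215 bases before the start. Further matches lay in 2 alternative starts of TGFBR1 and in 1 of ACVR1. No match was found in the 300-base promoters of BMPR2, SMAD4, TGFB1, TGFBR2, BMPR1B and BMP4. The GC content was 76.7% for the BMPR2 promoter, 66.7% for SMAD4, 72.0% for SMAD5 and 50.3% for BMPR1A, against a median of 58.7% over all promoters. The windows nearest to the array's start were 0.35 in BMPR1A, 0.23 in SMAD5, 0.32 in BMPR2 and 0.64 in SMAD4, all under 2-fold. SMAD5 also had 2 enriched windows, centered 844 and 1008 bp after the start. A link between a match and the windows was not tested.

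TGFB1 encodes the best known TGF beta ligand. Its enriched stretch was annotated inside the gene (chromosome 19, 46550442 to 46551406) and held 3 windows centered 486 to 976 bp after the start. The probes of the highest window read 0.75, 1.60 and 2.37. The probe of 2.37 lay 170 bp after the start of another transcript in the annotation, and the probe of 1.60 lay 12 bp before that start. The window mean was 1.57 ± 0.15, or 2.98-fold, higher than in 80.1% of the genes on chIP2. This window was bright: its 3 probes had a mean intensity percentile of 68.8 among the kept probes of the array. The mean processed intensities were 3385 in the IP and 1015 in the IgG channel. TGFB1 also had the flattest lower side of the 9 genes, with a lowest window of -0.10. Its probes ran only from 407 bp before to 2769 bp after the start. It thus had none farther upstream, where BMP4, BMPR1A, BMPR1B and SMAD5 had depleted windows.

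BMP4 encodes a BMP ligand and is annotated from 2 starts that lie 2342 bp apart. It had the most negative window of the 9 genes. The window 3914 bp before the upstream start, on chromosome 14 from 53497134 to 53497455, read -3.04 ± 0.20, which is 8.21-fold toward the IgG. Only 1.12% of the genes on chIP2 had a lowest window at or below this value. A run of 5 adjacent depleted windows spanned 53496571 to 53498072. A second depleted stretch of 3 windows, down to -1.86, lay 331 to 681 bp before the upstream start. The highest window of BMP4 stood next to the deep trough, 3134 bp before the start, with probes of 1.20, 1.24 and 1.57 and a mean of 1.34 ± 0.16. With windows of 5 probes it was 0.81, under the threshold. Enriched and depleted windows were thus neighbors here, with 2 enriched and 10 depleted windows in all.

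BMPR2 encodes the type II receptor for BMPs. Its 4 enriched windows formed 1 stretch on chromosome 2 from 203067112 to 203068121, centered 196 to 790 bp after the start and annotated inside the gene. Going away from the start, the probes 196, 392, 495 and 790 bp after it read 1.67, 1.60, 1.08 and 1.45. The next probe, at 915 bp, read 0.64, and the probes 36 and 309 bp before the start read 0.82 and -1.54. The highest window was 1.45 ± 0.14, or 2.73-fold, higher than in 71.4% of the genes on chIP1. The 4 probes were all over 2-fold, with IP intensities from 1433 to 2312. No window of BMPR2 was depleted, and the lowest was -0.61. The study tabulated BMPR2 among genes with both a peak on these same arrays and changed expression after GATA1 knockdown. That list was limited to genes of cell cycle, apoptosis or proliferation. The value of BMPR2 here is thus not independent evidence.

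TGFBR2 encodes the type II receptor for TGF beta. It had the longest enriched stretch of the 9 genes, 6 windows on chromosome 3 from 30623222 to 30625149, centered 452 to 1211 bp after the start and inside the gene. The probes between 452 and 1211 bp read, in order, 0.88, 2.89, 1.83, 1.09, 1.29 and 4.39. Of these 6 probes, 5 were over 2-fold. The highest window, on the last 3, was 2.26 ± 0.21 or 4.78-fold. The probe of 4.39 had a processed IgG intensity of 23.1 and an IP intensity of 484, and was not well above background in the IgG channel. The enriched windows centered 1026 and 1211 bp after the start both held this probe, so the length of the stretch rests in part on it. The next longest enriched runs of the 9 genes were of 4 windows, in BMPR2 and BMPR1B. With both channels of every probe required to be above background, the highest window of TGFBR2 was 1.94. With the median of the 3 probes in place of the mean, an alternative chosen after seeing the data, the highest window of TGFBR2 was 1.83. A smaller enriched stretch lay upstream, with 2 windows centered 3527 and 3257 bp before the start and reaching 1.42. A run of 3 depleted windows followed 2235 to 2553 bp after the start, down to -1.39.

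BMPR1A encodes a type I receptor for BMPs. Its highest window was not at the gene's start but 117385 bp downstream, on chromosome 10 from 88623573 to 88623962, in a second tiled stretch. It lay 1995 bp before the start of another transcript in the annotation. The 3 probes read 0.97, 2.93 and 3.07, with a mean of 2.33 ± 0.27 or 5.02-fold. The 2 high probes were dim, with IgG intensities of 23.5 and 19.6 and IP intensities of 180 and 165. The 3 probes had a mean intensity percentile of 5.19, and the probe of 3.07 was not well above background in the IgG channel. With both channels of every probe required to be above background, the highest window of BMPR1A was 1.07, and with windows of 5 probes it was 1.29. The part that this low signal played in the ratio was not tested. The lowest window, -2.44 ± 0.18, lay 3983 bp before the gene's start at a higher intensity, with a mean probe percentile of 53.2. It belonged to a run of 4 depleted windows from 88501623 to 88502883.

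BMPR1B encodes a related type I receptor for BMPs and had 46 windows, against a median of 23 over all genes. It had the highest window of the 9 genes, 2.82 ± 0.22 or 7.08-fold, higher than in 98.7% of the genes on chIP1. It lay on chromosome 4 from 96383000 to 96383331, in a second tiled stretch 346876 bp downstream of the gene's start and 498 bp after the start of another transcript in the annotation. The probes of this window read 1.89, 3.01 and 3.56. The run of 4 enriched windows from 96382809 to 96383457 was flanked on both sides by depleted runs of 3 windows, down to -2.22 on one side and -1.72 on the other. The probes of the window had a mean intensity percentile of 11.0 and a mean IgG intensity of 98.2. The part of the dim signal in this value was not tested. Near the gene's own start, the window 180 bp before it read 0.21, and 5 windows 2474 to 3839 bp before it were depleted. The 2 windows centered 1773 and 2184 bp after this start were enriched, up to 1.33, and both held a dim probe of 3.36. In the second tiled stretch, 2 more enriched windows, centered 341354 and 341511 bp downstream, reached 1.54. In all, BMPR1B had 8 enriched and 11 depleted windows.

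TGFBR1 encodes the type I receptor for TGF beta. It was the gene with no enriched window among the 9. Its highest window, centered 176 bp before the start, read 0.51 ± 0.13, higher than in only 9.93% of the genes on chIP1. The probes of this window read 0.07, 0.37 and 1.08. Its 18 windows were among the fewest of the 9 genes, and 1 of them was depleted, at -1.36 and 2312 bp after the start. TGFBR2, its partner receptor, stood 1.75 ± 0.24 above it in the highest window, with no replicate to set that difference against.

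SMAD4 encodes the partner shared by both branches of the pathway. Its enriched stretch was the only one that lay within 500 bp upstream of the gene's start, on chromosome 18 from 46810198 to 46810622, annotated as promoter. The probes 386, 279, 173 and 10 bp before the start read 1.05, 1.26, 0.93 and 1.36, and the next probe, 343 bp after it, read -0.37. The highest window was 1.18 ± 0.13, or 2.27-fold, with a mean intensity percentile of 64.0 over its probes. After subtraction of the median of all probes at the same distance from a start it was 0.93, and with windows of 5 probes 0.96, both under the threshold. Promoter-proximal probes were higher than distal ones over the whole arrays, as given below. A single window 973 bp after the start just passed the depleted threshold, at -1.01.

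SMAD5 encodes a receptor SMAD of the BMP branch. Its highest window lay far upstream, 4134 bp before the start, with probes of 0.83, 1.44 and 1.74 and a mean of 1.34 ± 0.14. With windows of 5 probes it was 0.94, under the threshold. A second pair of enriched windows, up to 1.24, was centered 844 and 1008 bp after the start. Between them, 6 adjacent depleted windows on chromosome 5 from 135492706 to 135494349 reached -1.75. SMAD5 had 4 enriched and 8 depleted windows of 34.

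**Figure D2:**
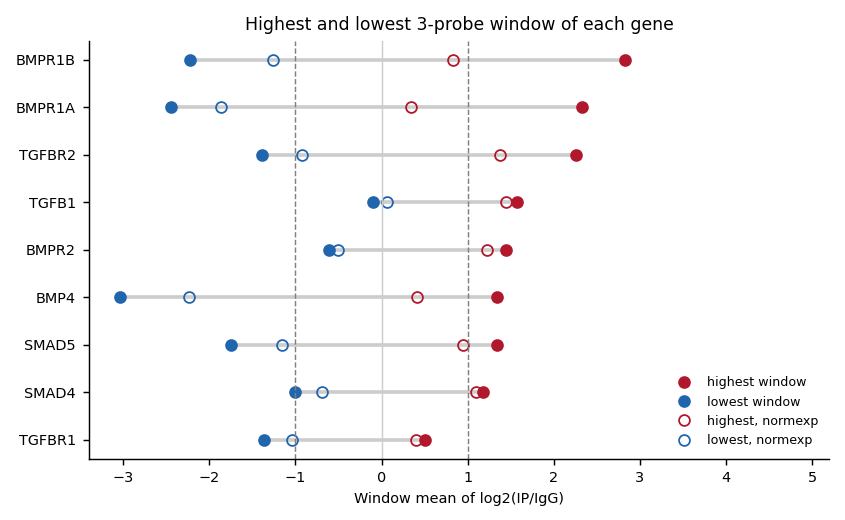
Highest (red) and lowest (blue) 3-probe window mean of log2(IP/IgG) for each gene, filled for processed signals and open for normexp background correction, with dashed lines at 2-fold. With normexp, BMPR1B falls from 2.82 to 0.83 and BMPR1A from 2.33 to 0.34, while TGFB1, at 1.57 and 1.45, moves little.

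Ordered by the highest window, the genes ran BMPR1B, BMPR1A, TGFBR2, TGFB1, BMPR2, BMP4, SMAD5, SMAD4 and TGFBR1. BMPR1B and BMPR1A also had the most windows of the 9 genes, 46 and 47, and the order was not adjusted for that. Neighbors in this order from TGFB1 down to SMAD4 differed by at most 0.15, less than the combined scanner error of the pair, as did BMPR1A and TGFBR2. The order depended on the filter on dim probes and on the background correction. With both channels of every probe required to be well above background, BMPR1A read 1.07, below every gene but TGFBR1, and TGFBR2 read 1.94, while BMPR1B stayed first at 2.83. With normexp, which models the local background of each spot, the highest windows were 1.45 for TGFB1, 1.38 for TGFBR2, 1.22 for BMPR2 and 1.10 for SMAD4. These 4 of 9 stayed over 2-fold, and 33.1% of all genes had an enriched window under this correction. The highest windows were 0.94 for SMAD5, 0.83 for BMPR1B, 0.41 for BMP4 and 0.34 for BMPR1A, all under 2-fold. The genes that stayed over 2-fold had their highest window at a mean probe intensity percentile of 32.5 to 68.8, and the other 4 at 5.19 to 41.9. The part of intensity in this difference was not tested.

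Near the start, the 9 genes were mostly under 2-fold. The window nearest to the start ran from 0.08 in TGFB1 to 0.64 in SMAD4. For BMP4 the downstream start was used. Around its upstream start the probe 151 bp after it read 0.002, and the probes 227 and 331 bp before it read -0.33 and -1.48. From 0 to 500 bp after the start, the 18 probes of the 9 genes averaged 0.48 (SD 0.69), and 42858 probes over all genes averaged 0.25 (SD 0.80). BMPR2 was highest there at 1.45 and SMAD4 lowest at -0.37. In the 500 bp before the start, 26 probes averaged 0.14 (SD 0.81) against 0.26 (SD 0.87), with SMAD4 highest at 1.15 and BMP4 lowest at -0.87. From 500 to 2000 bp upstream, 57 probes averaged -0.29 (SD 0.74) against -0.04 (SD 0.96). BMPR2 was highest there at 0.50 and BMP4 lowest at -0.74. BMP4 gave 16 of these 57 probes and so weighed heavily in the average. Some of its probes were upstream only of its downstream start and lay inside the gene as counted from its upstream start. These averages are given as a description, with no test.

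**Figure D3:**
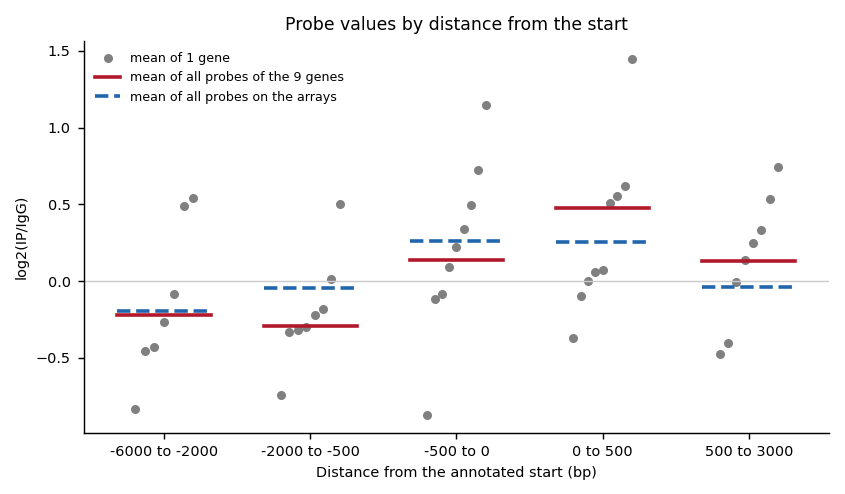
Mean log2(IP/IgG) of probes by distance from the annotated start in bp, with gray points for each of the 9 genes, red bars for all their probes and dashed blue bars for all probes on both arrays. The red bar is above the blue one at 0 to 500 bp (0.48 against 0.25) and below it at 500 to 2000 bp upstream (-0.29 against -0.04), with a wide spread between genes. At 500 to 2000 bp upstream, 16 of the 57 probes are of BMP4, the lowest gene there.

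The other genes of the pathway came from a list of 40 genes, of which 39 were measured. TGFBR3 was not named by any probe. Of these, 30 (76.9%) reached 2-fold toward the IP in a window, against 57.1% of all genes, and 22 (56.4%) toward the IgG, against 52.9%. Many of these genes also had more windows than the median of 23 over all genes. Among genes with 18 to 47 windows, the shares were 63.3% and 61.1%. The median of the highest windows was 1.14, against 1.09 over all genes. With normexp 15 of the 39 had an enriched window, against 33.1% of all genes.

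Among the other ligands, 9 of 10 had an enriched and 7 a depleted window, against 57.1% and 52.9% of all genes, with a median of 1.47. The highest were GDF2 (BMP9) at 2.65, TGFB2 at 2.57 and the activin subunit INHBA at 1.88. TGFB3, which the study also tabulated for a peak on these arrays and changed expression after GATA1 knockdown, reached 1.53. With normexp the highest windows were 1.32 for GDF2, 1.18 for TGFB2, 0.92 for INHBA and 0.86 for TGFB3. The lowest were AMH at 0.39, NODAL at 1.03 and BMP7 at 1.03.

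Among the other receptors, 6 of 7 had an enriched and 3 a depleted window, against 57.1% and 52.9% of all genes, with a median of 1.30. The highest were the activin receptors ACVR2B at 1.75, ACVR1C at 1.69 and ACVR2A at 1.55. With normexp they read 1.45, 0.62 and 1.06. ACVR1C had 1 enriched and 10 depleted windows of 35. The lowest were ACVR1B, a type I receptor for activin, at 0.22, ACVRL1 at 1.03 and the coreceptor ENG at 1.08. ACVR1B and TGFBR1, both type I receptors of the activin and TGF beta branch, were below 2-fold. ACVR1C of the same branch was not, except with normexp.

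Of the other SMADs, 4 of 6 had an enriched and 3 a depleted window, against 57.1% and 52.9% of all genes, with a median of 1.06. SMAD3, of the TGF beta branch, reached 1.39, and the inhibitory SMAD6 and SMAD7 reached 1.18 and 1.08. SMAD1 and SMAD9, which act beside SMAD5 in the BMP branch, stayed at 0.65 and 0.66, and SMAD2 at 1.03 passed the threshold narrowly. With normexp SMAD3 read 1.12, and SMAD6, SMAD7 and SMAD2 read 0.76, 0.98 and 0.74. Of the regulators, 7 of 12 had an enriched and 9 a depleted window, against the same shares of all genes, with a median of 1.01. The highest were the secreted antagonists FST at 1.78, GREM1 at 1.73 and NOG at 1.57. With normexp they read 1.275, 0.91 and 0.52. The lowest were SMURF2 at 0.09, with 1 window, LTBP1 at 0.59 and CHRD at 0.70.

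The response genes given here are ID1, ID2, ID3 and CDKN2B, which pathway signaling is known to induce. ID2, an inhibitor of basic helix-loop-helix factors, reached 2.69 at 4359 bp before its start. The highest windows were 1.27 for ID3, 1.21 for CDKN2B and 1.03 for ID1. With normexp they were 1.57 for ID2, 1.21 for ID3, 1.25 for CDKN2B and 1.11 for ID1. The rule for naming genes did not cover this role, so its 4 genes were all named after their values had been seen.

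**Figure D4:**
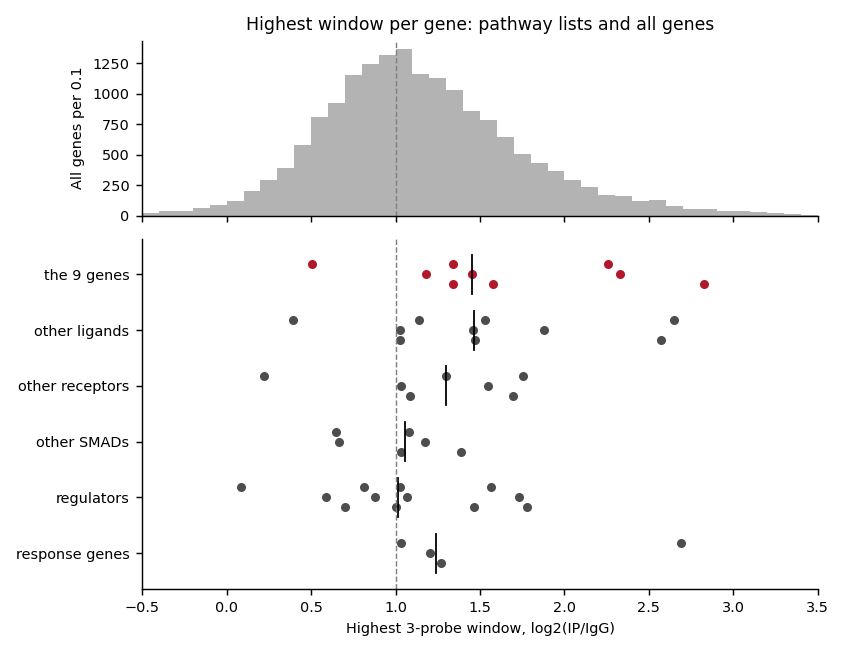
Highest 3-probe window of log2(IP/IgG) per gene, above as a histogram of all genes in steps of 0.1 and below for the 9 genes and the other pathway genes by role, with black bars for medians and a dashed line at 2-fold. The medians run from 1.01 for regulators to 1.47 for other ligands, and each role overlaps the bulk of all genes.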

How the data were processed

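Meg-01 DNA from a GATA1 IP and an IgG pull-down was measured on 2 arrays. Per the file headers, Agilent Feature Extraction 9.5.3.1 gave the deposited intensity values. The authors' processed signals were background-subtracted by a fitted surface, detrended and dye-normalized with a linear factor. The deposited log10 ratios, Cy5 over Cy3, equal those of the deposited series value table. In the study, lowess and median normalization and commercial peak calling followed. That peak calling was not used here.

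From the processed intensities, log2 ratios were computed in Python 3.11.15 (numpy 2.4.6, pandas 2.3.3) and centered on each array's median, with no loess or quantile step. Control spots, non-uniform spots and probes dim in both channels were dropped, which kept 237004 of 237210 probes on chIP1 and 236864 of 237201 on chIP2. Saturated spots were kept. The number of arrays limits precision. Distances of BMP4 refer to either of its starts, as in the annotation. Loess and normexp (offset 50) were run in R 4.3.3 with limma 3.58.1. Window means were tested on simulated data.

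The members and lists were chosen with earlier results of these data known. In all, 1 response gene of the pathway list is not reported here, and the list's counts leave it out. Named genes were all members, in each of the roles ligand, receptor, SMAD and regulator the 3 genes with the highest and the 3 with the lowest highest window, and TGFB3. The alternatives were loess, normexp, the series value table, no dim-probe filter, both channels above background, windows of 1 or 5 probes, 1.5-fold and 3-fold thresholds, removal of the distance trend, and window medians, the last chosen after seeing the data.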

Additional observations from a re-analysis of the deposited data

How the results depend on the processing

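Of the 81 values of the highest window of single genes under alternatives, 72 kept their side of the 2-fold threshold, 8 fell below it, 1 rose above it (TGFBR1 as a single probe, 1.08) and 0 reversed. Loess, the series value table, both filters on dim probes and window medians moved no gene across the threshold, but with both channels above background BMPR1A fell from 2.33 to 1.07. With normexp, 4 of the 9 genes had an enriched window, 4.40% of their windows were enriched and 6.59% depleted, against 3.25% and 2.5% of all windows, 5 of the 9 had a depleted window, and 15 and 13 of the other pathway genes had an enriched and a depleted window. Over all genes 33.1% and 23.9% then did. With windows of 5 probes, 5 of the 9 genes were enriched, with 6.83% of windows against 4.99% of all windows, and 15 other pathway genes were, against 34.1% of all genes. BMP4 (0.81), SMAD4 (0.96) and SMAD5 (0.94) then fell under 2-fold. At 3-fold, 3 of the 9 genes were enriched and 4 depleted, with 3.30% and 5.86% of windows against 1.79% and 2.74% of all windows, and 8 and 9 other pathway genes, against 20.6% and 22.3% of all genes. At 1.5-fold, 20.9% and 23.4% of the windows were enriched and depleted, against 19.3% and 21% of all windows. The cause was not tested. The stricter or looser thresholds move counts by construction, and the offset of normexp shrinks the log ratios of dim spots by construction. No paired analysis was possible because the 2 arrays hold different probes, so that no sample of one has a partner on the other. Each value rests on 1 hybridization, and the median signal of all probes was less than 2 times that of negative controls.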
